A study of Homo sapiens with 6 samples.

Results

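The genes described here are 38 members of the non-collagen extracellular matrix and its cell-surface proteoglycans, taken by symbol from the deposited count table, which holds 26334 symbols. All 38 symbols were found. They were grouped by role as 9 laminin chains, 4 basement membrane linkers (NID1, NID2, HSPG2 and AGRN), 6 genes of fibronectin, microfibrils and fibulin (FN1, FBN1, FBN2, FBLN1, MFAP2 and EMILIN1), 5 lysyl oxidases (LOX and LOXL1 to LOXL4), 5 matricellular and related glycoproteins (SPARC, TNC, POSTN, MATN2 and ECM1), 4 secreted proteoglycans (VCAN, BGN, LUM and DCN) and 5 cell-surface proteoglycans (SDC1 to SDC4 and GPC1). RNA came from MiaPaCa2, a human pancreatic ductal adenocarcinoma line, as 3 ZEB1-KO clones, whose ZEB1 gene was deleted by CRISPR-Cas9, and 3 WT clones, which carry the wild-type gene. All clones were grown with 10% fetal bovine serum, and per the labels all were sorted as GFP-positive cells after electroporation with a Cas9-GFP plasmid. Each library was 1 clone, made by SMART-Seq2 from 2000 lysed cells. SMART-Seq2 copies polyadenylated RNA and amplifies the cDNA, with no strand information and no molecular identifiers.

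Laminins are cross-shaped trimers of an alpha, a beta and a gamma chain that self-assemble into the sheet of the basement membrane, where nidogens, perlecan (HSPG2) and agrin tie that sheet to type IV collagen and to cell receptors. Fibronectin and fibrillin build the fibrils of the interstitial matrix, and lysyl oxidases crosslink collagen and elastin. Syndecans and glypicans carry heparan sulfate chains at the cell surface, where they bind growth factors and matrix proteins. In pancreatic ductal adenocarcinoma much of the interstitial matrix is made by stromal fibroblasts, while carcinoma cells contribute basement membrane components. ZEB1 is a zinc-finger repressor of epithelial genes that binds E-box sequences of the form CAGGTG or CAGGTA, and the comparison asks how these matrix genes differ in level when it is deleted.

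Promoters are shown because ZEB1 binding letters can be read in them. RefSeq promoter windows of 300 bases (250 before and 50 after the gene's start, GRCh38.p14) matched 30 of the 38 members, and LAMA1, AGRN, EMILIN1, LOXL2, MATN2, LUM, DCN and SDC2 were not matched. The 4 windows printed are those of LAMA5 and SDC1, as examples that hold the motif, and those of LOXL3 and VCAN, which had the largest fold changes among the tested members. LAMA5 is at chr20:62367263-62367562 (minus strand), SDC1 at chr2:20225426-20225725 (minus strand), LOXL3 at chr2:74553893-74554192 (minus strand) and VCAN at chr5:83471494-83471793 (plus strand). Each reads 5′ to 3′ on the strand of its gene, and capitals mark CAGGTG or CAGGTA on either strand.
LAMA5: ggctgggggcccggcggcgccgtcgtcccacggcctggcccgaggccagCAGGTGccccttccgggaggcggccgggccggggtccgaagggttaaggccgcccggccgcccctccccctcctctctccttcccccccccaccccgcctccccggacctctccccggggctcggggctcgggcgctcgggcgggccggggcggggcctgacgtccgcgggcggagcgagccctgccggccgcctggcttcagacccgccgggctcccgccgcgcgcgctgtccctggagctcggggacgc
SDC1: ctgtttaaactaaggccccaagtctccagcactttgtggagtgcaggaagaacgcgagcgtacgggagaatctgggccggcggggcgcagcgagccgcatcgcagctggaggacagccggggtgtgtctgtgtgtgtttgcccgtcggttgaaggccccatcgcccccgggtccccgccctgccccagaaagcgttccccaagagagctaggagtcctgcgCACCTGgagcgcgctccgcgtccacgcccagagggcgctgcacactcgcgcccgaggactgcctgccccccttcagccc
LOXL3: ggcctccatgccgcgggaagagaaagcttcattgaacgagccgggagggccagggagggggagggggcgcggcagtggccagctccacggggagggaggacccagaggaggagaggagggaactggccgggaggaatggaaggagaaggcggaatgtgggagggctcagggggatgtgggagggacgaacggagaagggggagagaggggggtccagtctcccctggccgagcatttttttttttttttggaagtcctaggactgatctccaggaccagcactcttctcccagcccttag
VCAN: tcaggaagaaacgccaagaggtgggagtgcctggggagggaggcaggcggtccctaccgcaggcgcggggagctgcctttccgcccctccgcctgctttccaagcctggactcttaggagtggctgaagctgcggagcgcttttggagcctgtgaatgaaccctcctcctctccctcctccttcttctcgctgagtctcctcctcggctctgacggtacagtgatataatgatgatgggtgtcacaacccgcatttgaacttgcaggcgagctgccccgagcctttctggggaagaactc
CAGGTG, read on the other strand as CACCTG, occurred in 7 of the 30 matched members (23.3%), against 5625 of 27305 RefSeq promoter windows (20.6%). The 7 were LAMA3, LAMA5, LAMB3, MFAP2, LOXL4, SDC1 and SDC3. LAMA5 and SDC1 were picked from these with their values known. LAMA3, LAMB3 and SDC3 also had positive log2 fold changes (ZEB1-KO over WT) that did not pass the test. Of all 22 tested members 12 were positive (54.5%), and of all genes tested 49.4%. LAMA3 turned to -2.75 without ZEB1-KO replicate 3, and SDC3 to -0.56 without ZEB1-KO replicate 2. LAMB3 ranged from 0.11 to 2.18 when single libraries were left out. MFAP2 and LOXL4 were not in the main test, and LOXL4 was at -0.87 when no filter on low counts was used. In LAMA5 the motif began 201 bases before the start, and in SDC1 it began 29 bases before it. CAGGTA, or TACCTG, occurred in 1 of the 30 members (3.33%), LAMA3, against 2643 of all windows (9.68%). In LAMA3 the motifs did not overlap, with CACCTG beginning 73 bases before the start and TACCTG and CAGGTA beginning 161 and 34 bases before it. The LOXL3 and VCAN windows held neither.

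The libraries held between 18909305 and 42876693 counts, where levels are given as CPM, a count scaled to its library's size after TMM correction. The limit that a count of 0 allows, 3 counts, was 0.0687 to 0.150 CPM, and it covers counting error only. The targeted gene, ZEB1, was at 3.34, 3.46 and 11.5 CPM in ZEB1-KO replicates 1, 2 and 3, against 34.0, 31.2 and 33.6 CPM in WT replicates 1, 2 and 3. The ZEB1-KO clones lay below the WT clones, with replicate 3 the highest of them. The labels do not say which exons were deleted, so these counts do not show whether intact transcript remained. The ZEB1 log2 fold change was -2.43 (SE 0.49, adjusted p = 0.0930, edgeR's quasi-likelihood test), and -3.27 without ZEB1-KO replicate 3 (adjusted p = 0.0137 in the same test). ZEB1 was called lower by DESeq2 (adjusted p = 3.28e-05), by edgeR's likelihood ratio test (0.00056), by the quasi-likelihood test without a filter (0.0305) and in the authors' deposited table (0.000391), and the adjusted p over all alternatives reached 0.278. The labelled cell line was checked against KRT8, KRT18, KRT19 and VIM, whose summed level was 5410 to 7220 CPM in ZEB1-KO clones and 5930 to 6770 CPM in WT clones. The sum joins genes that differed in opposite directions, since KRT8 was at 1632, 2071 and 2117 CPM in ZEB1-KO clones against 719.8, 854.8 and 875.2 CPM in WT clones, and VIM at 1342, 2175 and 1391 CPM in ZEB1-KO clones against 3781, 3788 and 3045 CPM in WT clones. The groups did not overlap for KRT8, KRT18 (higher in ZEB1-KO clones) or VIM. None of these passed the test (adjusted p = 0.0635, 0.297 and 0.105, edgeR's quasi-likelihood test). The 4 genes do not by themselves identify the line. Of 7 fibroblast markers, 4 had at most 3 counts in any library, and the list summed to 0.272 to 1.10 CPM in ZEB1-KO clones and 0.203 to 0.458 CPM in WT clones, with FAP at 0 in all libraries. Of 5 endothelial markers, 3 were at this level and the list summed to 0.642 to 3.14 CPM in ZEB1-KO and 0.405 to 0.939 CPM in WT clones. The 7 blood markers summed to 4.0 to 6.94 CPM in ZEB1-KO and 2.35 to 14.9 CPM in WT clones, nearly all of it CD14 and CD68, with PTPRC at no more than 3 counts. All 7 acinar and islet markers had at most 3 counts in any library.

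Many of the members, of the interstitial matrix and of the basement membrane, had few or no reads in either group of clones. POSTN (periostin), LUM (lumican), DCN (decorin) and MFAP2 had 0 counts in all 6 libraries, which allows up to 0.150 CPM in the shallowest library. LAMA1, NID1, FBN2 and LOXL1 had at most 3 counts in any library. SPARC, which encodes a collagen-binding glycoprotein abundant in stroma, had 0, 0 and 2 counts in ZEB1-KO clones and 1, 2 and 5 counts in WT clones. LOXL4 had at most 4 counts in any library. EMILIN1 had 4, 4 and 2 counts in ZEB1-KO clones and 10, 1 and 4 counts in WT clones. At this depth no difference was detectable for these genes. LAMA4, HSPG2, TNC, BGN and SDC2 did not pass the filter on low counts of the main test either, and their counts are given with their groups.

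After the filter on low counts, 22 of the 38 members entered edgeR's quasi-likelihood test among 13659 genes. No member was called at an adjusted p below 0.05, in a comparison that called 0.176% of all genes tested (0.117% higher and 0.0586% lower in ZEB1-KO clones). At an unadjusted p below 0.05 there were 2 members, LOXL3 and VCAN, both higher in ZEB1-KO clones, against 17.7% of all genes tested (9.64% higher and 8.04% lower). DESeq2 called 3 of the 23 members to which it gave an adjusted p (LOXL3, VCAN and TNC), all higher. Of all genes to which it gave an adjusted p, it called 7.12% (4.34% higher and 2.78% lower). edgeR's likelihood ratio test called LOXL3 and VCAN, against 4.52% of all genes (2.75% higher and 1.76% lower). Without the filter on low counts the quasi-likelihood test called TNC alone among 34 members, against 0.667% of all genes (0.433% higher and 0.234% lower). limma on log2(TPM + 1) called none of the 18 members with a TPM value, against 0.844% of all genes (0.699% higher and 0.145% lower). The authors' deposited table had 1 of 18 listed members past 0.05, VCAN, against 4.75% of its genes. The tested members had 12 positive and 10 negative log2 fold changes (ZEB1-KO over WT) with a median of 0.14, beside a median of -0.01 over all genes tested. The 2 groups of clones did not overlap for 3 of 22 members, LAMA5 and LOXL3 higher and FN1 lower in ZEB1-KO clones, against 23.6% of all genes tested (11.9% higher and 11.7% lower). Intervals were wide, since only 4 members (LAMA2, LAMB2, LAMC1 and LOXL2) had a 95% interval of the log2 fold change that lay wholly between -1 and 1.

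**Figure D1:**
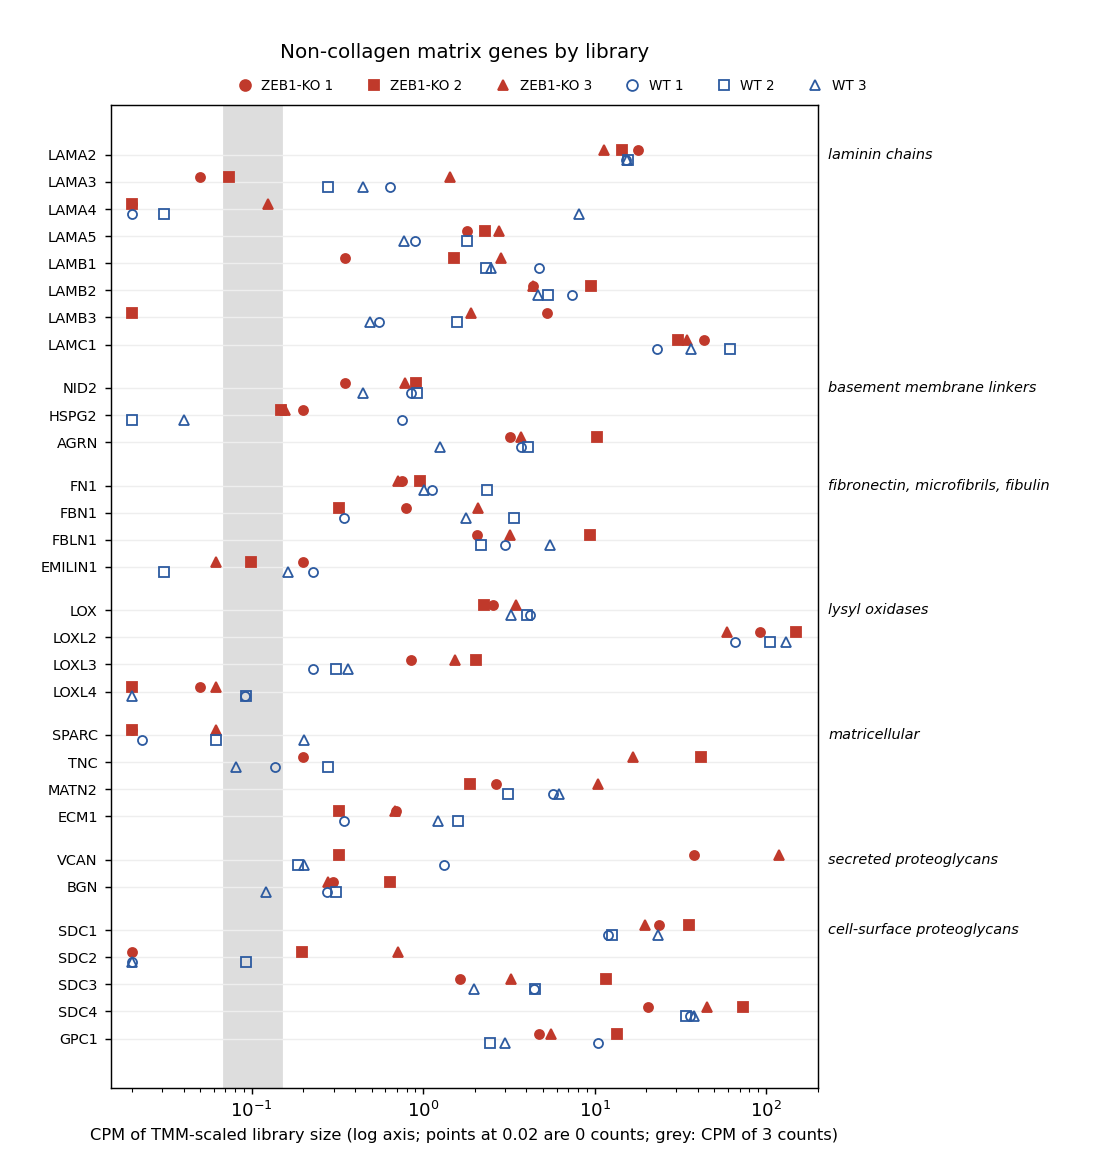
Level of each member with more than 3 counts in some library, in CPM on a log axis, for each ZEB1-KO clone (filled red) and WT clone (open blue), with symbols for replicates 1 to 3. Most rows overlap between the groups, while VCAN and TNC span over 2 decades among the ZEB1-KO clones and LAMA4 stands at 8.06 CPM in WT replicate 3 alone.

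The laminin chains with the highest CPM were LAMC1, LAMA2 and LAMB2, and none of them separated the groups. In these bulk libraries fewer expressing cells in a clone and less RNA per cell cannot be told apart. LAMC1, the gamma-1 chain present in most laminin trimers, was at 43.6, 30.55 and 34.7 CPM in ZEB1-KO replicates 1, 2 and 3, against 23.0, 61.3 and 36.6 CPM in WT replicates 1, 2 and 3, with a log2 fold change of -0.15 (95% interval -0.96 to 0.65). The WT values enclosed the ZEB1-KO values. LAMA2, the alpha-2 chain best known from muscle and peripheral nerve, was at 17.96, 14.5 and 11.4 CPM in ZEB1-KO clones and 15.3, 15.7 and 15.5 CPM in WT clones, with a log2 fold change of -0.09 (95% interval -0.66 to 0.48). Here the ZEB1-KO values enclosed the WT values. LAMB2, the beta-2 chain, averaged 6.08 CPM ± 2.93 in ZEB1-KO clones and 5.80 CPM ± 1.38 in WT clones (SD, n = 3 each), with ZEB1-KO replicate 2 the highest at 9.46 CPM. Its log2 fold change was 0.07 (95% interval -0.82 to 0.96).

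Compared per transcript length, in the TPM values that the authors deposited for 18 of the 38 members, LAMC1 was the leading laminin chain. LAMC1 averaged 7.80 TPM ± 1.02 in ZEB1-KO clones and 7.03 TPM ± 2.82 in WT clones (SD, n = 3 each), LAMA2 2.57 TPM ± 0.555 and 2.265 TPM ± 0.174, and LAMB2 1.83 TPM ± 1.02 and 1.43 TPM ± 0.462. LAMC1 exceeded LAMA2 in 6 of 6 libraries, by 1.85 to 4.79 times. LAMA2 exceeded LAMB2 in 5 of 6 libraries, and its level was 4.85 to 23.8 times that of LAMA5 in each library. LAMB2 exceeded LAMB1 in 6 of 6 libraries, by 1.56 to 12.65 times.

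LAMA5, the alpha-5 chain typical of mature epithelial basement membranes, was at 1.80, 2.30 and 2.77 CPM in ZEB1-KO clones and 0.893, 1.79 and 0.770 CPM in WT clones. The groups did not overlap, but the lowest ZEB1-KO value and the highest WT value were 1.796 and 1.789 CPM. In TPM LAMA5 was at 0.255, 0.371 and 0.402 in ZEB1-KO clones and 0.121, 0.203 and 0.0942 in WT clones, without overlap. Neither TPM fit called it (adjusted p = 0.431 for limma on log2(TPM + 1) and 0.129 on log2(TPM + 0.1)). Its log2 fold change of 0.99 (SE 0.43) did not pass the test (adjusted p = 0.283, edgeR's quasi-likelihood test). In GENCODE 29, 1.71% of the exon bases of LAMA5 are shared with ADRM1 on the opposite strand, a gene with 1288 to 6224 counts per library. Reads there cannot be assigned to a strand.

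LAMA3 and LAMB3, the alpha-3 and beta-3 chains found in epithelial basement membranes, were low and differed between clones. LAMA3 had 1, 3 and 46 counts in ZEB1-KO replicates 1, 2 and 3, against 28, 9 and 11 counts in WT replicates 1, 2 and 3, so that its log2 fold change of 0.21 became -2.75 without ZEB1-KO replicate 3 (adjusted p = 0.934 and 0.127, edgeR's quasi-likelihood test). LAMB3 had 106, 0 and 61 counts in ZEB1-KO clones and 24, 51 and 12 counts in WT clones. ZEB1-KO replicate 2 thus held no LAMB3 read, which allows up to 0.0741 CPM there, while ZEB1-KO replicate 1 was the highest library at 5.29 CPM. Its log2 fold change was 1.43 (SE 1.26), and it was 0.11 without ZEB1-KO replicate 1. Leaving out ZEB1-KO replicate 2 gave 2.03, and WT replicate 2 gave 2.18.

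LAMB1, the beta-1 chain, was at 0.349, 1.51 and 2.83 CPM in ZEB1-KO clones and 4.74, 2.31 and 2.47 CPM in WT clones, with overlap and a log2 fold change of -1.01 (SE 0.65). Leaving out ZEB1-KO replicate 1 gave -0.55, leaving out WT replicate 1 gave -0.58, and leaving out ZEB1-KO replicate 3 gave -1.73. LAMA4, the alpha-4 chain of vascular and mesenchymal basement membranes, had 0, 0 and 4 counts in ZEB1-KO clones and 0, 1 and 199 counts in WT clones. Its WT mean of 2.70 CPM ± 4.65 (SD, n = 3) therefore rested on WT replicate 3, at 8.06 CPM, and the gene did not pass the filter on low counts. Without that filter the LAMA4 log2 fold change was -5.80 and was not called (adjusted p = 0.185, edgeR's quasi-likelihood test).

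**Figure D2:**
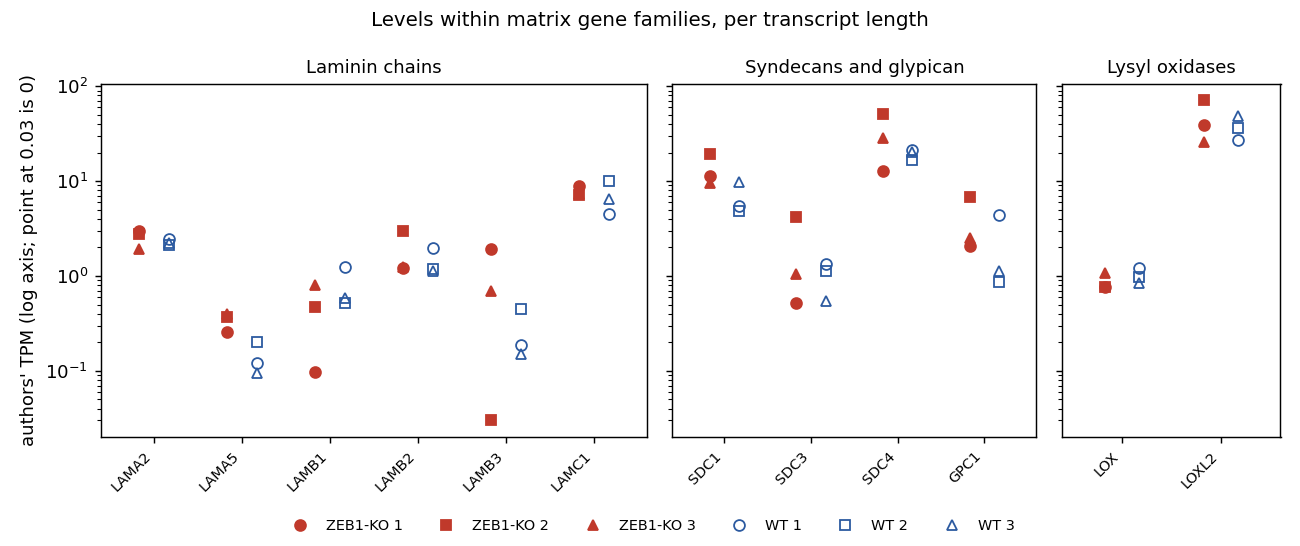
Authors' TPM values on a log axis for laminin chains, cell-surface proteoglycans and lysyl oxidases, for each ZEB1-KO clone (filled red, left) and WT clone (open blue, right) of a gene. LAMC1 leads the laminins, SDC4 the syndecans and LOXL2 the lysyl oxidases, between 25.75 and 72.2 TPM.

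Of the proteins that link laminin to other matrix, only AGRN and NID2 were tested. AGRN, which encodes agrin, was at 3.19, 10.4 and 3.70 CPM in ZEB1-KO clones and 3.73, 4.07 and 1.26 CPM in WT clones, with ZEB1-KO replicate 2 standing above the other 5 libraries. Its log2 fold change of 0.93 (SE 0.58) was 0.19 without that library. NID2 (nidogen-2) was at 0.681 CPM ± 0.295 in ZEB1-KO clones and 0.740 CPM ± 0.257 in WT clones (SD, n = 3 each). In GENCODE 29, 30% of NID2 exon bases are shared with RTRAF on the opposite strand, so its count is uncertain. HSPG2 had 4, 6 and 5 counts in ZEB1-KO clones and 33, 0 and 1 counts in WT clones, all of the WT signal but 1 read coming from WT replicate 1.

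FN1 and the microfibril genes were low throughout. FN1, the fibronectin gene often used as a mesenchymal marker, was at 0.748, 0.963 and 0.716 CPM in ZEB1-KO clones and 1.12, 2.34 and 1.01 CPM in WT clones. The groups did not overlap in CPM, and the 95% interval of its log2 fold change of -0.88 ran from -1.89 to 0.14. Without WT replicate 2, the highest library, the log2 fold change was -0.39. In TPM the groups did overlap, with FN1 at 0.135, 0.198 and 0.132 TPM in ZEB1-KO clones and 0.193, 0.338 and 0.158 TPM in WT clones. FBN1 (fibrillin-1) was at 0.798, 0.321 and 2.09 CPM in ZEB1-KO clones and 0.344, 3.39 and 1.78 CPM in WT clones, with broad overlap. FBLN1 (fibulin-1) was at 2.05, 9.34 and 3.21 CPM in ZEB1-KO clones and 3.00, 2.16 and 5.47 CPM in WT clones, and its log2 fold change of 0.47 turned to -0.42 without ZEB1-KO replicate 2.

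Among the lysyl oxidases, LOXL2 was abundant and LOXL3 separated the groups. LOXL3, a lysyl oxidase-like amine oxidase, had 17, 82 and 49 counts in ZEB1-KO clones and 10, 10 and 9 counts in WT clones, or 0.848, 2.025 and 1.525 CPM against 0.229, 0.308 and 0.365 CPM. Every ZEB1-KO clone lay above every WT clone. WT replicates 1 and 2 lay below the cutoff of the filter on low counts, so LOXL3 entered the test through the ZEB1-KO clones. The difference was 4.94-fold, or 2.30 on the log2 scale (SE 0.47, 95% interval 1.23 to 3.37), and did not pass the test (adjusted p = 0.0942, edgeR's quasi-likelihood test). DESeq2 called it higher by 2.33 on the log2 scale (adjusted p = 0.00691), and over all alternatives the log2 fold change lay between 2.00 and 2.57 and the adjusted p between 0.00289 and 0.278. In GENCODE 29, 14.3% of LOXL3 exon bases are shared with HTRA2 and 4.95% with DOK1, both on the opposite strand, and HTRA2 had 362 to 645 counts per library. The part of these genes in the LOXL3 count was not tested.

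LOXL2, which oxidizes collagen IV among other substrates, was at 92.0, 149.2 and 59.2 CPM in ZEB1-KO clones and 66.2, 105.6 and 130.8 CPM in WT clones. The groups overlapped fully, with a log2 fold change of -0.01 (95% interval -0.86 to 0.84). On the length-corrected scale LOXL2 was the leading member in 5 of the libraries, taking 24.9% to 43.6% of the summed TPM of the 18 listed members in ZEB1-KO clones and 35.6% to 50.2% in WT clones. In ZEB1-KO replicate 3 SDC4 took the larger share, 27.7% against 24.9% for LOXL2. LOX, the founding lysyl oxidase, was at 2.55, 2.25 and 3.49 CPM in ZEB1-KO clones and 4.19, 4.04 and 3.24 CPM in WT clones, with a log2 fold change of -0.47 (95% interval -1.21 to 0.27). LOXL2 exceeded LOX by 22.4 to 94.1 times in TPM across the 6 libraries.

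VCAN and TNC were high in some ZEB1-KO clones and not in others. VCAN encodes versican, a large chondroitin sulfate proteoglycan of provisional matrix. It had 766, 13 and 3807 counts in ZEB1-KO replicates 1, 2 and 3, against 58, 6 and 5 counts in WT replicates 1, 2 and 3, or 38.2, 0.321 and 118.5 CPM against 1.33, 0.185 and 0.203 CPM. ZEB1-KO replicate 2 lay within the WT range, so the groups overlapped. WT replicates 2 and 3 lay below the cutoff of the filter on low counts, so VCAN entered the test through the ZEB1-KO clones. The fitted log2 fold change was 6.42 (SE 1.72, adjusted p = 0.125 in edgeR's quasi-likelihood test). Over single libraries left out it ranged from 4.99, without ZEB1-KO replicate 3, to 8.07, without WT replicate 1, and the adjusted p of the same test was between 0.0688 and 0.332. The fits on log2(TPM + 1) and log2(TPM + 0.1) gave smaller log2 fold changes, 2.15 and 3.86. DESeq2 called VCAN higher (adjusted p = 0.00552, and 0.00487 to 0.332 over all alternatives). VCAN had 6.48 on the log2 scale in the authors' deposited table (adjusted p = 0.0360, edgeR).

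TNC encodes tenascin-C, a hexameric glycoprotein of wound and tumour stroma. It had 4, 1686 and 538 counts in ZEB1-KO replicates 1, 2 and 3, against 6, 9 and 2 counts in WT replicates 1, 2 and 3, or 0.200, 41.65 and 16.75 CPM against 0.137, 0.278 and 0.0810 CPM. ZEB1-KO replicate 1 lay within the WT range. TNC did not pass the filter on low counts. Without that filter the quasi-likelihood test gave an adjusted p of 0.0342 and a log2 fold change of 6.84, and DESeq2 gave an adjusted p of 0.00076. The adjusted p of the quasi-likelihood test was 0.0174 without ZEB1-KO replicate 1 and 0.157, 0.230 and 0.300 without WT replicates 1, 2 and 3. In these fits TNC passed the filter only through ZEB1-KO replicates 2 and 3, where it was high. The fit without ZEB1-KO replicate 1 left out the ZEB1-KO clone where TNC was low. Without ZEB1-KO replicate 2 or 3 TNC did not pass the filter and was not tested. VCAN and TNC were both high in ZEB1-KO replicate 3, while replicate 1 had a high level of VCAN alone and replicate 2 of TNC alone. The fibroblast markers were low in these clones. COL1A1 had 4, 6 and 8 counts in ZEB1-KO replicates 1, 2 and 3 against 1, 0 and 0 in WT replicates 1, 2 and 3, and ACTA2 had 16, 5 and 6 counts in ZEB1-KO clones against 12, 7 and 3 in WT clones. PDGFRA had 0, 0 and 5 counts in ZEB1-KO clones against 3, 0 and 1 in WT clones, and PDPN 0, 0 and 3 against 0, 0 and 1. PDGFRB had at most 2 counts in any library, THY1 was at 0 in the ZEB1-KO clones, and FAP was at 0 throughout. COL1A1, PDGFRA and PDPN had their highest count in ZEB1-KO replicate 3, at 8, 5 and 3 counts. The highest count of ACTA2 was in ZEB1-KO replicate 1, that of PDGFRB in ZEB1-KO replicate 1 and WT replicate 1, and that of THY1 in WT replicate 1. The part of fibroblast-like expression in the VCAN and TNC values was not tested.

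**Figure D3:**
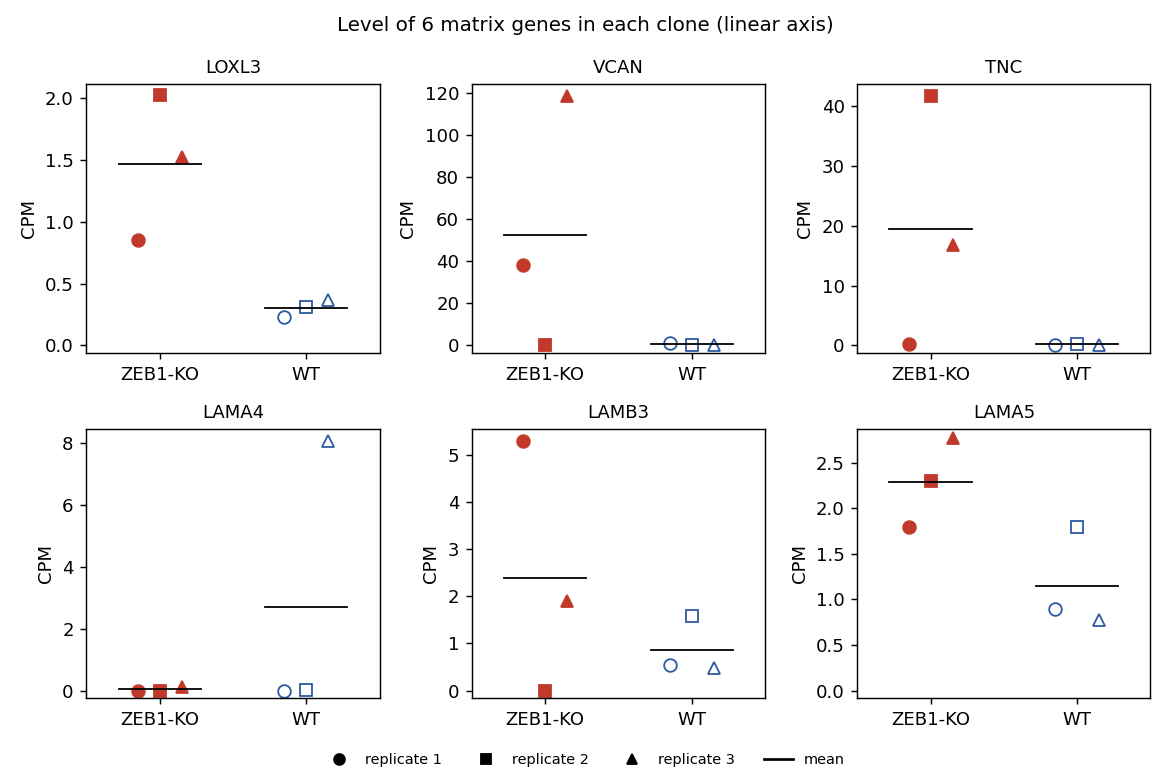
CPM on linear axes of 6 matrix genes in each ZEB1-KO clone (filled red) and WT clone (open blue), with a line at each group's mean. The groups do not overlap for LOXL3 and LAMA5, as for 23.6% of all genes tested, but for LAMA5 they nearly touch (1.796 against 1.789 CPM). The VCAN and TNC means rest on 2 ZEB1-KO clones each and the LAMA4 mean on WT replicate 3.

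The other matricellular genes did not separate the groups. MATN2 (matrilin-2), a filament-forming adaptor, was at 2.64, 1.88 and 10.4 CPM in ZEB1-KO clones and 5.70, 3.12 and 6.16 CPM in WT clones, with a log2 fold change near 0 (95% interval -1.45 to 1.44). ECM1 was at 0.568 CPM ± 0.214 in ZEB1-KO clones and 1.05 CPM ± 0.645 in WT clones (SD, n = 3 each), with a log2 fold change of -0.90 (SE 0.61). Leaving out WT replicate 2 gave -0.42, ZEB1-KO replicate 2 gave -0.59 and WT replicate 1 gave -1.31. BGN (biglycan), a small leucine-rich proteoglycan, had 6, 26 and 9 counts in ZEB1-KO clones and 12, 10 and 3 counts in WT clones.

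The 4 tested cell-surface proteoglycans had positive log2 fold changes, none of which passed the test. SDC1, the syndecan of epithelial cells, was at 23.8, 35.35 and 19.6 CPM in ZEB1-KO clones and 12.0, 12.6 and 23.4 CPM in WT clones. WT replicate 3 lay among the ZEB1-KO values, and the log2 fold change was 0.72 (SE 0.35, adjusted p = 0.320, edgeR's quasi-likelihood test). SDC4, a focal adhesion syndecan, was at 20.6, 73.0 and 45.2 CPM in ZEB1-KO clones and 36.05, 34.0 and 38.2 CPM in WT clones. The WT clones lay close together and the ZEB1-KO clones on both sides of them, with a log2 fold change of 0.36 (95% interval -0.55 to 1.27). SDC3 averaged 5.52 CPM ± 5.37 in ZEB1-KO clones and 3.63 CPM ± 1.42 in WT clones, and GPC1 (glypican-1) 7.94 CPM ± 4.86 and 5.29 CPM ± 4.46 (SD, n = 3 each). Without ZEB1-KO replicate 2 the log2 fold changes of SDC3, SDC4 and GPC1 were -0.56, -0.13 and -0.05, and that of SDC1 was 0.44. SDC2 had 0, 8 and 23 counts in ZEB1-KO clones and 0, 3 and 0 counts in WT clones. In TPM, SDC4 exceeded SDC1 in 6 of 6 libraries by 1.12 to 3.88 times, and SDC1 exceeded SDC3 by 4.12 to 21.95 times.

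ZEB1-KO replicate 2 was the highest library for 9 of the 22 tested members (40.9%), against 23.2% of all genes tested. These were LAMB2, AGRN, FBLN1, LOXL2, LOXL3, SDC1, SDC3, SDC4 and GPC1. WT replicate 3 was the highest for 0 of them, against 17.1% of all genes. Without ZEB1-KO replicate 2 the median log2 fold change of the tested members was -0.11. The spread among clones, as the SD of log2(CPM + 0.1), was wider in ZEB1-KO than in WT clones for 15 of 22 members (68.2%), against 56.5% of all genes. Its median over the members was 0.736 in ZEB1-KO and 0.577 in WT clones, and over all genes 0.367 and 0.316.

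**Figure D4:**
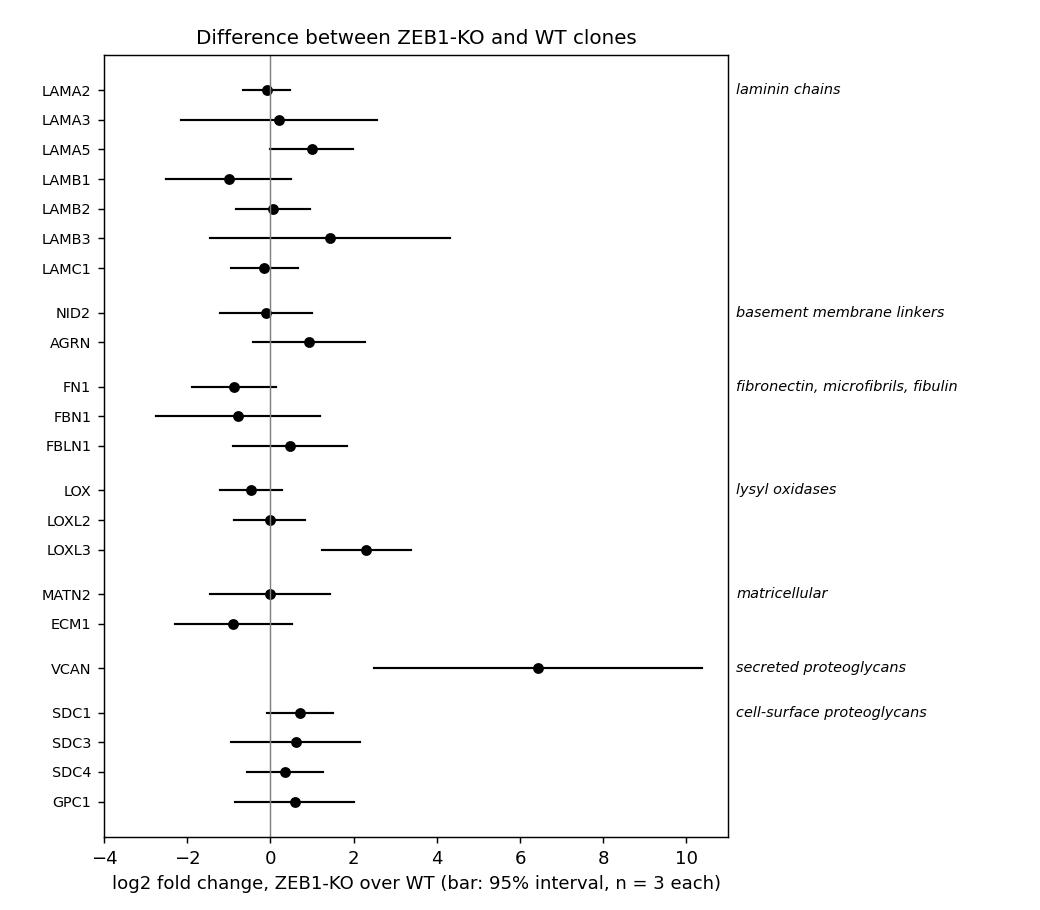
Log2 fold change (ZEB1-KO over WT) of the 22 tested members from edgeR's quasi-likelihood fit, with 95% intervals, by role. In 20 of 22 the interval crosses 0, and those of LOXL3 (1.23 to 3.37) and VCAN (2.48 to 10.4) do not. The intervals are not adjusted for the number of genes, and 17.7% of all genes tested had an unadjusted p below 0.05. Neither LOXL3 nor VCAN passed the test (adjusted p = 0.0942 and 0.125, edgeR's quasi-likelihood test).

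Other genes of the matrix and its assembly were taken from lists of 99 genes, of which 54 were tested and none was called by the quasi-likelihood test at an adjusted p below 0.05, against 0.176% of all genes tested. At an unadjusted p below 0.05 there were 6, against 17.7% of all genes, and DESeq2 called 3, against 7.12%. Their median log2 fold change was 0.01, with 28 positive and 26 negative. Among 15 tested matrix glycoproteins, 9 were positive. MMRN2 (multimerin-2) was at 8.33, 2.72 and 10.65 CPM in ZEB1-KO clones and 0.825, 1.79 and 2.71 CPM in WT clones, so that the groups nearly touched (log2 fold change 2.03, adjusted p = 0.144 in edgeR's quasi-likelihood test). LTBP1, which tethers latent TGF-beta to the matrix, had a log2 fold change of 1.52. VTN (vitronectin) followed with 1.77 and overlapping groups. Of 7 other tested proteoglycans and link proteins, 5 were negative. TGFBR3 (betaglycan), a co-receptor of TGF-beta, was at 7.63, 12.7 and 19.6 CPM in ZEB1-KO clones and 29.8, 59.8 and 36.5 CPM in WT clones, without overlap (log2 fold change -1.66, adjusted p = 0.113 in the same test). COL18A1 had a log2 fold change of -0.97, and HAPLN1, a hyaluronan and proteoglycan link protein, was at 3.14, 42.1 and 95.8 CPM in ZEB1-KO clones and 0.435, 13.7 and 0 CPM in WT clones.

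The receptors of laminin had 3 positive and 5 negative log2 fold changes among 8 tested. ITGB1, the beta-1 integrin chain shared by many matrix receptors, was at 518.5, 401.4 and 256.1 CPM in ZEB1-KO clones and 613.2, 1005 and 660.2 CPM in WT clones, without overlap (log2 fold change -0.95, adjusted p = 0.174 in edgeR's quasi-likelihood test). ITGA6, the alpha-6 chain of laminin-binding integrins, had a log2 fold change of -1.43 with overlapping groups. BCAM, a receptor of the laminin alpha-5 chain, had 6, 50 and 22 counts in ZEB1-KO clones and 5, 0 and 2 counts in WT clones. Its log2 fold change was 3.41 (SE 0.84, adjusted p = 0.115 in the same test). BCAM passed the filter on low counts through the ZEB1-KO clones alone, the group where it was high. Of 22 tested enzymes that build or trim glycosaminoglycan chains, 13 were positive, with a median log2 fold change of 0.13. CHPF, a chondroitin polymerizing factor, was at 5.04, 22.75 and 9.12 CPM in ZEB1-KO clones and 1.97, 3.64 and 3.65 CPM in WT clones, with a log2 fold change of 2.00 (adjusted p = 0.131 in the same test), and CHPF2 and CHST11 had log2 fold changes of 0.92 and 1.15. LAMC3, a laminin gamma chain outside the 38 members, had a log2 fold change of 0.07.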

How the data were processed

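Gene expression was measured in 6 libraries, grouped by the sample titles. The authors deposited a table of raw counts by gene symbol, TPM values for 11013 of these genes, and an edgeR table with log2 fold changes, average log2 CPM, a likelihood ratio score, p-values and adjusted p-values, per the file headers. The tools and builds named are TopHat2 2.1.0, HTSeq 0.6.1, edgeR 3.2.2, hg19 and GRCh37, per the submitters' processing notes. Their settings, the gene lengths behind TPM and the filter behind the 11013 genes were not stated by any label or header.

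The deposited counts were tested with edgeR 4.0.16 in R 4.3.3. filterByExpr (minimum count 10, total 15) kept 13659 genes, scaling was by TMM, and glmQLFTest gave two-sided p-values, which were adjusted by Benjamini-Hochberg across every gene kept, at 0.05, with group as the term and 4 residual and 4.35 prior degrees of freedom. The SE came from the F statistic, and 95% intervals from a t distribution on these degrees of freedom. DESeq2 1.42.0 and limma 3.58.1 gave alternatives. Tests were tried on simulated data. No library is a repeat deposit of another of its group (chi-square divided by genes 92.35 or more), which does not show that they come from separate clones. Each replicate is its own clone, as the design text states. Culture days and library batches are not given, and p-values measure the spread between clones.

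The members and lists were chosen with earlier results of these data known. All 38 members were described. From each other list, genes past the threshold were to be named or, with none, up to 3 with the smallest p. A gene that this rule also names is not reported here. Comparisons of levels between genes used TPM. Exon overlaps came from GENCODE 29 and promoters from RefSeq, both on GRCh38, a later build than that of the files, so gene models may differ.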

Additional observations from a re-analysis of the deposited data

How the results depend on the processing

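The count of 0 members called held under RLE scaling, library size alone, the 1 CPM filter, both TPM fits, the replicate block and 5 of the 6 fits that left out a library. LOXL3 did not enter the fits with the 1 CPM filter or TPM. Of these settings TNC entered only those that left out a WT library. A member that did not enter a fit could not be called there. It became 1 higher without a filter (TNC), 2 higher with the likelihood ratio test (LOXL3 and VCAN) and 3 higher with DESeq2, and ranged from 0 to 1 when single libraries were left out (TNC, without ZEB1-KO replicate 1). No alternative called a member lower. Other matrix genes called went from 0 to 3 higher and 1 lower with the likelihood ratio test and to 2 higher and 1 lower with DESeq2. Over all genes, 16 higher and 8 lower calls became 87 and 47 without a filter, 376 and 241 with the likelihood ratio test, 570 and 365 with DESeq2, 77 and 16 with log2(TPM + 1) and 55 higher with log2(TPM + 0.1), and ranged from 3 to 16 and from 2 to 10 without single libraries. The cause of these differences was not tested.

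The sign turned in 39 of 318 refits of tested members, none of them called. With library size alone the log2 fold changes were 0.0665 (LAMA2), 0.0233 (LAMC1), 0.0447 (NID2), 0.17 (LOXL2) and 0.0896 (MATN2), beside a shift of the median of all genes to 0.14. With log2(TPM + 1) they were 0.12 (LAMA2), 0.19 (LAMC1), 0.21 (LOXL2) and 0.0053 (MATN2), and with log2(TPM + 0.1) 0.16, 0.22 and 0.22 for LAMA2, LAMC1 and LOXL2, where the median of all genes was 0.20 and 0.26. MATN2 was 0.015 with RLE, 0.0011 without a filter and 0.017 with DESeq2. Without single libraries the ranges that crossed 0 were -0.26 to 0.0644 (LAMA2), -2.75 to 0.74 (LAMA3), -0.40 to 0.30 (LAMB2), -0.42 to 0.30 (LAMC1), -0.37 to 0.19 (NID2), -1.75 to 0.0581 (FBN1), -0.42 to 0.92 (FBLN1), -0.42 to 0.26 (LOXL2), -1.15 to 0.39 (MATN2), -0.56 to 1.04 (SDC3), -0.13 to 0.71 (SDC4) and -0.0467 to 1.57 (GPC1).

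The deviations of clones from their group means had correlations of 0.0219, 0.00714 and 0.224 between clones with the same replicate number. Clones with different numbers were not compared, so these values do not settle whether the numbers pair them. With the replicate block LAMA3 was -0.71 and LAMB2 -0.0023, and no member was called. The low counts of LAMA3, LAMB3, LOXL3 and FN1 limit what these libraries can show.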
